A study of Mus musculus with 27 samples.

Results

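A group of 10 genes that mark neutrophils was followed in the lungs of irradiated mice: S100a8, S100a9, Csf3r, Cxcr2, Il1r2, Mmp8, Mmp9, Lcn2, Ngp and Camp. They were chosen by name, with earlier results of these data known, and all 10 are among the 18194 genes measured on the arrays. Each gene was read from the brightest of its probe sets, and Mmp9, the member with 2 probe sets, was also read from the other. Lungs were taken 24 hours after whole thorax lung irradiation (WTLI) of female mice of 3 inbred strains, C57L/J, C57BL/6J and CBA/J, aged 10-12 weeks, with 12.5 or 15 Gy of X-rays or a sham dose of 0 Gy, the head, abdomen and forelimbs being shielded. The labels record different late lung pathologies for the strains, and the study calls C57L/J mice radiation sensitive and C57BL/6J mice radiation resistant. Every one of the 9 groups held 3 mice, with 1 array per mouse made from the right upper lobe and no pooling, so that p-values measure the spread between 3 mice a group. A change is called where its unadjusted p in limma, a linear model with shared variances, is under 0.01, and the adjusted p-values printed are Benjamini-Hochberg values over all genes.

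Neutrophils are short-lived white blood cells that are made in the bone marrow, circulate, and are held in large numbers in the capillaries of the lung. They carry ready-made granules filled with proteases and antimicrobial proteins, and they enter tissue along gradients of CXC chemokines. Different genes mark different ages of the cell. The genes of granule proteins such as Ngp and Camp are transcribed mainly while the cell matures in the marrow, whereas S100a8, S100a9, Csf3r, Cxcr2 and Il1r2 are transcribed in mature circulating cells. Some of the genes are not confined to neutrophils, since lung epithelium also makes Lcn2 and macrophages also make Mmp9. In RNA of a whole lobe, fewer cells of a type and less RNA per cell cannot be told apart.

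The lobes carried the transcripts of lung. The surfactant gene Sftpc lay between 14.23 and 14.93 and the club cell gene Scgb1a1 between 14.62 and 15.28 on the log2 scale of intensity on the 27 arrays. On 9 arrays the mean of 10 skeletal muscle genes lay between 9.22 and 14.74, against 5.52 to 6.85 on the other 18. These 9 were replicates 1 and 2 of C57BL/6J mice at 12.5 Gy and replicates 2 and 3 at 15 Gy, replicate 3 of C57L/J mice at 15 Gy, and replicates 2 and 3 of CBA/J mice at 12.5 Gy and replicates 1 and 2 at 0 Gy. The thyroid gene Tg ranged from 2.31 to 15.07, with a median of 4.56. Called changes of the members within a strain that rest on arrays with muscle transcripts are given with and without them. Correlations, genes of other lists and most changes that were not called or were taken over the 3 strains are given with them only. Fits without them were made over the 18 arrays left, with the spread shared over all groups. Without them a single array was left at 12.5 and at 15 Gy in C57BL/6J mice and at 0 and at 12.5 Gy in CBA/J mice. Each of those arrays was assumed to vary like the other groups, so only the size of the change is given where they enter.

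The start regions of the genes are shown because S100a8, S100a9, Csf3r and Mmp8 belong to a set of 5 members that varied together from mouse to mouse, and Ngp, shown beside them, does not. RefSeq promoters (GRCm38.p6) were matched for 9 of the 10 genes, S100a8, S100a9, Csf3r, Cxcr2, Mmp8, Il1r2, Lcn2, Ngp and Camp, and 250 bases before the annotated start are printed for 5, in lower case and on the strand of the gene. Capitals mark matches, on either strand, to 3 motifs. The first is the site of the C/EBP family of factors, which direct granulocyte genes, searched for as TTGCNNAA and as TTACNNAA, with N for any base. PU.1, a transcription factor of myeloid cells, binds the second, whose core was written GAGGAAG. The third is the TATA box of core promoters, for which the letters of the search were TATAAA. The regions are S100a8 at chr3:90668821-90669070 on the plus strand, S100a9 at chr3:90695722-90695971 on the minus strand, Csf3r at chr4:126024409-126024658 on the plus strand, Mmp8 at chr9:7558179-7558428 on the plus strand and Ngp at chr9:110419558-110419807 on the plus strand. The Csf3r region lies before an internal transcript start, within the gene as annotated (chr4:126023441-126044975).
S100a8: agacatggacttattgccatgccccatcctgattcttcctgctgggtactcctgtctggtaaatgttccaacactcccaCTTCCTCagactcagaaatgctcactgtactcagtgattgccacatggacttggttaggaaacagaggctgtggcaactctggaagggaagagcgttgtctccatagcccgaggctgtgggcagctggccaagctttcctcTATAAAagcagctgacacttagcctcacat
S100a9: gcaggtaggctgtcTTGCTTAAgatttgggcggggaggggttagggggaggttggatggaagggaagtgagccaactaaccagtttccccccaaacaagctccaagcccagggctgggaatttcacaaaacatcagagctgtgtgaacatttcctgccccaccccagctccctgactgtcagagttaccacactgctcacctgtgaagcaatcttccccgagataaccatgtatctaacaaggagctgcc
Csf3r: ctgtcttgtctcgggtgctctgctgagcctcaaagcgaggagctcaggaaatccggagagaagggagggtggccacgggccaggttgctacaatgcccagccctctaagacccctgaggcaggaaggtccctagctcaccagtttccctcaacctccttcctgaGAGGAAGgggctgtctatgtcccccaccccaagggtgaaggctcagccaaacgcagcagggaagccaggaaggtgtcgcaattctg
Mmp8: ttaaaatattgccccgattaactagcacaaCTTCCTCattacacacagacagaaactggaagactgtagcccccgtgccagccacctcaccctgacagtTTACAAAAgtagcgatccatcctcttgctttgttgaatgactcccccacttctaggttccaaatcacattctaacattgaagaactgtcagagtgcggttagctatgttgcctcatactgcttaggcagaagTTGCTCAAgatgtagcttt
Ngp: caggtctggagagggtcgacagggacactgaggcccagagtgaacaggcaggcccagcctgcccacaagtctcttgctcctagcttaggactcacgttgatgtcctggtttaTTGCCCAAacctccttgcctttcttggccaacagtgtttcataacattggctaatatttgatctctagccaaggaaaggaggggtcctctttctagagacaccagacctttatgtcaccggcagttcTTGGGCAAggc
S100a8 had the only TATA match among the 9, starting 30 bases before the gene, while TATAAA occurred in 12.4% of the 32851 promoters of this length. A PU.1 match was found in S100a8, Csf3r, Mmp8 and Lcn2, that is in 4 of 9, and in 10.6% of all promoters. A C/EBP match was found in S100a9, Mmp8, Lcn2 and Ngp, again 4 of 9, and in 16.5% of all promoters. Mmp8 and Ngp each held a pair of C/EBP matches, and those of Ngp lay 138 and 11 bases before the start. The motifs were chosen after the sequences had been seen, and a match is a description of letters only.

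S100a8 and S100a9 encode the subunits of calprotectin, the most abundant protein of the neutrophil cytosol. The genes are neighbours on chromosome 3, at 90669071-90670034 and 90692630-90695721. In C57BL/6J mice S100a8 measured 11.10, 9.73 and 11.19 at 0 Gy, 12.99, 12.73 and 14.17 at 12.5 Gy, and 14.02, 12.81 and 13.14 at 15 Gy on the log2 scale. Every irradiated C57BL/6J mouse was above every sham-irradiated one. The log2 change was 2.62 ± 0.55 (SE, n = 3 mice per group) at 12.5 Gy, or 6.17-fold (adjusted p = 0.17), and 2.65 ± 0.505 at 15 Gy, or 6.27-fold (adjusted p = 0.18), and both were called. S100a9 in the same mice measured 10.36, 8.78 and 10.17 at 0 Gy, 12.23, 12.13 and 13.64 at 12.5 Gy, and 13.44, 11.89 and 12.53 at 15 Gy. Again no irradiated mouse overlapped with a sham-irradiated one, and the log2 change was 2.90 ± 0.59 at 12.5 Gy (7.44-fold, adjusted p = 0.16) and 2.85 ± 0.57 at 15 Gy (7.22-fold, adjusted p = 0.18), both called. Both genes were highest on replicate 3 at 12.5 Gy and replicate 1 at 15 Gy, which are the irradiated C57BL/6J arrays without muscle transcripts. Against 0 Gy these single arrays gave changes of 3.49 at 12.5 Gy and 3.35 at 15 Gy for S100a8, and of 3.87 and 3.67 for S100a9.

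Neither gene was called in C57L/J mice. S100a8 measured 9.86, 12.00 and 11.24 at 0 Gy, 12.62, 12.06 and 11.98 at 12.5 Gy, and 10.92, 11.74 and 9.82 at 15 Gy. The groups at 15 and 0 Gy overlapped almost entirely, with a log2 change of -0.21 (95% interval -1.95 to 1.53), while at 12.5 Gy the change was 1.19 (-0.21 to 2.59). S100a9 measured 8.46, 11.36 and 10.52 at 0 Gy, 12.23, 11.51 and 11.55 at 12.5 Gy, and 9.91, 11.09 and 9.42 at 15 Gy. All C57L/J mice at 12.5 Gy lay above the sham-irradiated ones in S100a9, but sham-irradiated replicate 1, at 8.46, lay far below the other 2 and the change of 1.65 ± 0.76 was not called (adjusted p = 0.45). The CBA/J mice measured 10.69, 11.02 and 10.34 at 0 Gy, 11.45, 10.59 and 10.66 at 12.5 Gy, and 11.80, 11.65 and 11.36 at 15 Gy in S100a8. The change at 15 Gy was 0.92 ± 0.22, or 1.89-fold (called, adjusted p = 0.15), with no overlap. In the same mice S100a9 measured 9.69, 10.13 and 9.13 at 0 Gy, 10.51, 10.05 and 10.22 at 12.5 Gy, and 11.33, 10.85 and 10.95 at 15 Gy. The log2 change of S100a9 in CBA/J mice was 1.39 ± 0.29 at 15 Gy against 0 Gy (2.63-fold, adjusted p = 0.12) and 0.79 ± 0.20 at 15 Gy against 12.5 Gy (adjusted p = 0.69), and both were called. Without the arrays that carried muscle these CBA/J changes were 1.26 for S100a8 and 1.91 for S100a9 at 15 Gy against 0 Gy. For S100a9 at 15 Gy against 12.5 Gy the change was then 0.54.

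**Figure D1:**
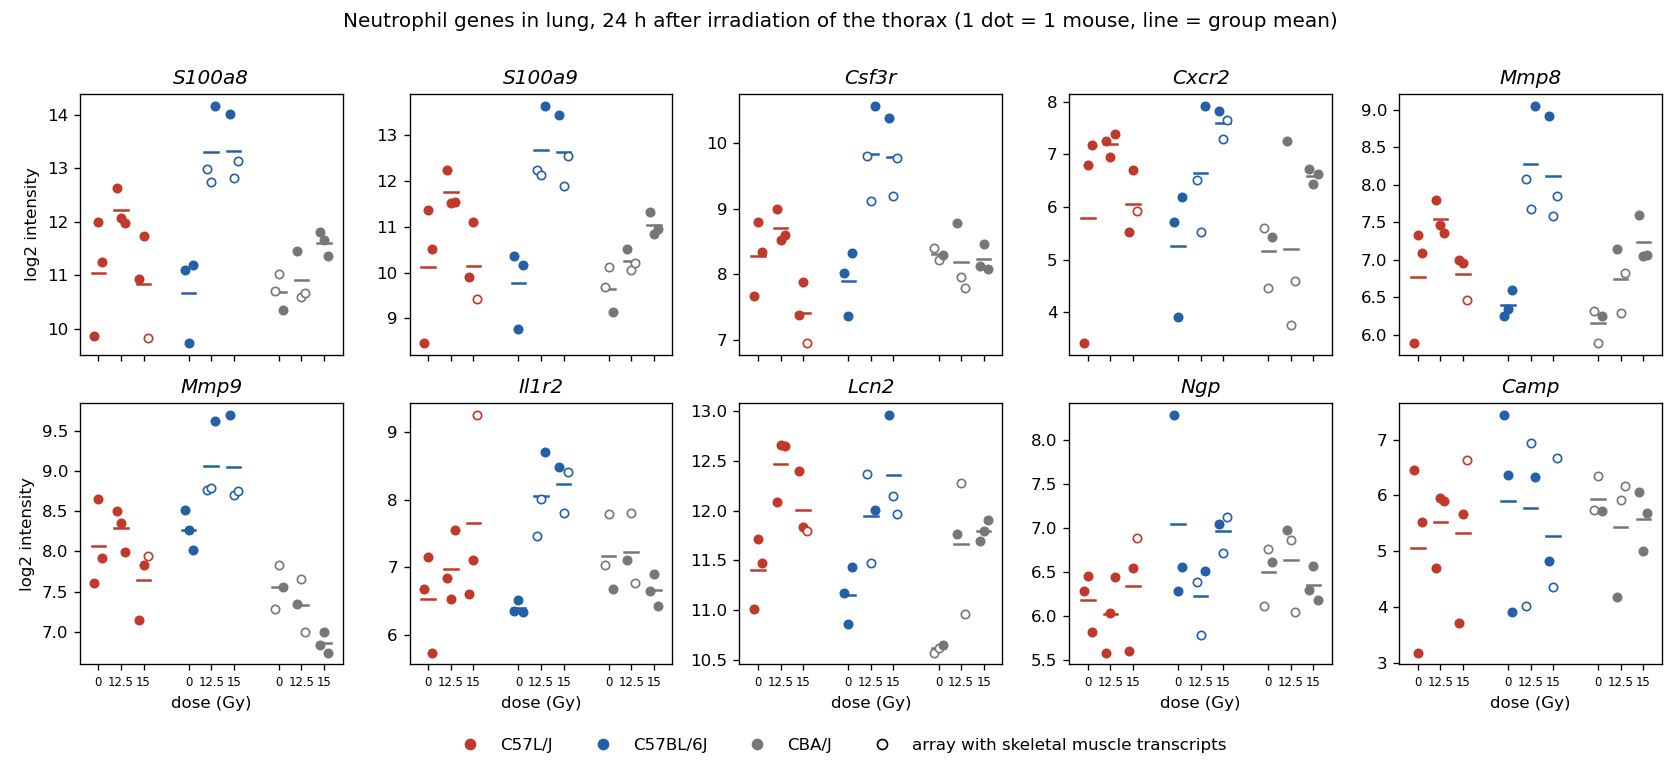
The log2 intensity of the 10 neutrophil genes (vertical axes) is plotted for each mouse by strain (colour) and dose in Gy (horizontal axis), with a line at the mean of each group of 3 mice and open circles for the 9 arrays with skeletal muscle transcripts. The C57BL/6J mice at 12.5 and 15 Gy lie above all C57BL/6J mice at 0 Gy in S100a8, S100a9, Csf3r, Mmp8, Mmp9, Il1r2 and Lcn2, while Ngp and Camp show no such separation.

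Of the 3 receptors, Csf3r binds granulocyte colony-stimulating factor, which drives the release and survival of neutrophils. Csf3r measured 8.02, 7.36 and 8.33 at 0 Gy, 9.80, 9.12 and 10.58 at 12.5 Gy, and 10.39, 9.20 and 9.78 at 15 Gy in C57BL/6J mice. Irradiated and sham-irradiated mice did not overlap at either dose, and the log2 change was 1.93 ± 0.44 at 12.5 Gy (3.82-fold, adjusted p = 0.19) and 1.89 ± 0.39 at 15 Gy (3.70-fold, adjusted p = 0.19), both called. Without the arrays with muscle transcripts it was 2.68 and 2.49. The C57L/J mice had Csf3r values of 7.67, 8.80 and 8.35 at 0 Gy, 9.00, 8.52 and 8.59 at 12.5 Gy, and 7.38, 7.89 and 6.95 at 15 Gy. It was lower in every C57L/J mouse at 15 Gy than in any at 12.5 Gy, by a log2 change of -1.30 ± 0.28 (called, adjusted p = 0.99), and the group at 15 Gy was the lowest of all 9. Without replicate 3 at 15 Gy, the array with muscle transcripts, that change was -1.07, which was called in the fit of the 5 arrays left and not called in the fit over the 18 arrays without muscle transcripts. Csf3r means in CBA/J mice were 8.30 ± 0.10 at 0 Gy, 8.18 ± 0.53 at 12.5 Gy and 8.23 ± 0.21 at 15 Gy (SD, n = 3), and the 95% interval of the change at 15 Gy was -0.44 to 0.28.

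Cxcr2 is the chemokine receptor through which neutrophils follow CXC chemokines. Its probe set varied more between mice than those of the other receptors, and in C57BL/6J mice it measured 5.71, 3.90 and 6.18 at 0 Gy, 6.51, 5.52 and 7.93 at 12.5 Gy, and 7.82, 7.30 and 7.65 at 15 Gy. Only the mice at 15 Gy were separated from the sham-irradiated ones, by a log2 change of 2.33 ± 0.60 (5.01-fold, called, adjusted p = 0.25). The call was lost with the spread shared over all 27 arrays (adjusted p = 0.20), and without the arrays with muscle transcripts the change was 2.56. Without sham-irradiated replicate 2, the mouse at 3.90, the change was 1.65 and called, and the call was lost without sham-irradiated replicate 1 or any mouse at 15 Gy. Among CBA/J mice Cxcr2 measured 5.60, 4.46 and 5.42 at 0 Gy, 7.25, 3.75 and 4.59 at 12.5 Gy, and 6.73, 6.43 and 6.64 at 15 Gy. The change at 15 Gy was 1.44 ± 0.32 (2.71-fold, called, adjusted p = 0.13), and without the arrays with muscle transcripts 1.17. A sham-irradiated C57L/J mouse at 3.41 lay far below the others at 6.80 and 7.18, and neither dose was called in that strain.

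Il1r2 is a decoy receptor that binds interleukin 1 without signalling, and glucocorticoids are known to induce it. In C57BL/6J mice Il1r2 measured 6.35, 6.52 and 6.34 at 0 Gy, 7.46, 8.01 and 8.70 at 12.5 Gy, and 8.48, 7.81 and 8.40 at 15 Gy. The sham-irradiated mice lay close together, and the log2 change was 1.66 ± 0.32 at 12.5 Gy (3.15-fold, adjusted p = 0.14) and 1.83 ± 0.21 at 15 Gy (3.55-fold, adjusted p = 0.092), both called. On the arrays without muscle transcripts it was 2.30 and 2.08. The change in C57L/J mice at 15 Gy was 1.13 ± 0.77, and that mean rested on replicate 3 at 9.25, which carried muscle transcripts, the other mice measuring 6.61 and 7.11. In CBA/J mice Il1r2 was called at neither dose, with a change of 0.06 (95% interval -0.90 to 1.03) at 12.5 Gy and of -0.50 (-1.29 to 0.28) at 15 Gy. Among sham-irradiated mice Il1r2 was higher in CBA/J, at 7.03, 7.79 and 6.67, than in C57BL/6J in each mouse. The difference of 0.76 was not called (adjusted p = 0.42), and the CBA/J arrays at 7.03 and 7.79 carried muscle transcripts. In the same comparison Mmp9 (-0.71, adjusted p = 0.25) and Lcn2 (-0.54, adjusted p = 0.32) were lower without overlap, and neither was called.

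Mmp8 is neutrophil collagenase, a protease stored in granules. In C57BL/6J mice Mmp8 measured 6.25, 6.35 and 6.60 at 0 Gy, 8.09, 7.68 and 9.06 at 12.5 Gy, and 8.92, 7.58 and 7.85 at 15 Gy. All irradiated mice lay above all sham-irradiated mice, with a log2 change of 1.88 ± 0.37 at 12.5 Gy (3.67-fold, adjusted p = 0.14) and of 1.72 ± 0.365 at 15 Gy (3.29-fold, adjusted p = 0.20), both called. The arrays without muscle transcripts gave 2.66 and 2.52. Its CBA/J values were 6.32, 5.89 and 6.26 at 0 Gy, 7.14, 6.29 and 6.82 at 12.5 Gy, and 7.60, 7.06 and 7.06 at 15 Gy. The change at 15 Gy was 1.08 ± 0.21 (2.12-fold, called, adjusted p = 0.11), and without the arrays with muscle transcripts 0.98. The change in C57L/J mice was 0.77 ± 0.40 at 12.5 Gy and 0.03 ± 0.41 at 15 Gy, and neither was called.

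Mmp9, gelatinase B, degrades basement membrane collagen. It was the one member called lower after irradiation, and that only in CBA/J mice at 15 Gy. In C57BL/6J mice Mmp9 measured 8.51, 8.27 and 8.02 at 0 Gy, 8.77, 8.79 and 9.62 at 12.5 Gy, and 9.69, 8.71 and 8.76 at 15 Gy, with no overlap and a log2 change of 0.79 ± 0.28 at 12.5 Gy (adjusted p = 0.41) and 0.78 ± 0.31 at 15 Gy (adjusted p = 0.39), neither called. Without the arrays with muscle transcripts the changes were 1.35 and 1.43. The Mmp9 values of CBA/J mice were 7.28, 7.83 and 7.55 at 0 Gy, 7.35, 7.66 and 7.01 at 12.5 Gy, and 6.84, 6.99 and 6.74 at 15 Gy. All CBA/J mice at 15 Gy lay below the sham-irradiated ones, by -0.69 ± 0.17 (0.618-fold, called, adjusted p = 0.16). The call was lost in the other probe set (-1.35, adjusted p = 0.32). Without the arrays with muscle transcripts the change was -0.69, and the direction held in both.

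Lcn2 encodes lipocalin 2, which withholds iron from bacteria by binding their siderophores. Lcn2 measured 11.17, 10.86 and 11.44 at 0 Gy, 12.36, 11.47 and 12.00 at 12.5 Gy, and 12.96, 12.15 and 11.97 at 15 Gy in C57BL/6J mice. The values in CBA/J mice were 10.58, 10.63 and 10.66 at 0 Gy, 11.76, 12.28 and 10.96 at 12.5 Gy, and 11.69, 11.80 and 11.90 at 15 Gy. Those in C57L/J mice were 11.01, 11.72 and 11.47 at 0 Gy, 12.09, 12.66 and 12.65 at 12.5 Gy, and 12.40, 11.83 and 11.80 at 15 Gy. In every strain and at both doses each irradiated mouse lay above each sham-irradiated mouse. The log2 change lay between 0.61 and 1.20 in the 6 comparisons with 0 Gy. It was called in C57L/J mice at 12.5 Gy (1.06 ± 0.25, adjusted p = 0.19), in C57BL/6J mice at 15 Gy (1.20 ± 0.31, adjusted p = 0.25) and in CBA/J mice at 15 Gy (1.18 ± 0.11, adjusted p = 0.019). In the fits of 6 arrays, the last was the only change of a member within a strain at an adjusted p under 0.05. In that comparison 1.01% of all genes passed. Without the arrays with muscle transcripts this Lcn2 change was 1.14. The C57BL/6J arrays without muscle transcripts gave 0.85 at 12.5 Gy and 1.80 at 15 Gy.

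Ngp, neutrophilic granule protein, and Camp, the precursor of the antimicrobial cathelicidin, are made by maturing neutrophils. Ngp measured 8.28, 6.29 and 6.56 at 0 Gy, 6.39, 5.78 and 6.51 at 12.5 Gy, and 7.05, 6.71 and 7.13 at 15 Gy in C57BL/6J mice, and all other mice lay between 5.59 and 6.98. Camp measured 7.44, 6.36 and 3.91 at 0 Gy, 4.02, 6.94 and 6.34 at 12.5 Gy, and 4.82, 4.36 and 6.66 at 15 Gy in C57BL/6J mice, so that mice of 1 group differed by several log2 units. Irradiated and sham-irradiated mice overlapped in both genes in all 3 strains. The 95% interval at 15 Gy in C57BL/6J mice was -1.41 to 1.24 for Ngp and -3.21 to 1.96 for Camp. Of the granule genes of early precursors, Mpo (myeloperoxidase) measured 5.81 to 7.27 and Elane (neutrophil elastase) 2.16 to 5.59 over the 27 arrays, and neither was called in any comparison.

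Read together by comparison, most calls among the neutrophil genes against 0 Gy were made in C57BL/6J mice. At 12.5 Gy against 0 Gy, 5 of the 10 were called higher (S100a8, S100a9, Csf3r, Mmp8 and Il1r2), where 0.978% of all genes were called higher, and 7 did not overlap, against 6.82% of all genes. Their median log2 change was 1.52, against -0.01 over all genes. At 15 Gy against 0 Gy, 7 were called higher (the same 5 with Cxcr2 and Lcn2), where 1.59% of all genes were called higher, and 8 did not overlap, against 8.92% of all genes, with a median change of 1.77. None passed an adjusted p under 0.05 in these fits of 6 arrays, which 0.484% of genes did at 12.5 Gy and 0.066% at 15 Gy. With the spread estimated over all 27 arrays, S100a8, S100a9, Csf3r and Mmp8 had adjusted p-values of 0.0089 to 0.014 at 12.5 Gy and of 0.011 to 0.020 at 15 Gy. The other members and the share of all genes passing are not given for that fit. These values are therefore not set against all genes. When each array was left out in turn, S100a8, S100a9 and Il1r2 kept their call at both doses, and the count was 3 to 6 at 12.5 Gy and 4 to 6 at 15 Gy, the lowest without sham-irradiated replicate 2 at 12.5 Gy and without sham-irradiated replicate 1 at 15 Gy. Without the arrays with muscle transcripts the median changes were larger, 2.48 at 12.5 Gy and 2.28 at 15 Gy. Between 15 and 12.5 Gy none was called in C57BL/6J mice, where 0.555% of all genes were, and the median difference was 0.01.

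In C57L/J mice 1 member (Lcn2) was called higher at 12.5 Gy against 0 Gy, where 1.68% of all genes were called higher. The groups of 3 members did not overlap, against 9.78% of all genes, and the median change was 0.62. The call of Lcn2 was lost without sham-irradiated replicate 1 or 3 and without replicate 2 or 3 at 12.5 Gy, and the change lay between 0.87 and 1.25 over all left-out arrays. At 15 Gy against 0 Gy none was called, where 1.86% of all genes were, 1 member (Lcn2) did not overlap, against 7.61% of all genes, and the median was 0.10. The median was -0.53 without sham-irradiated replicate 1. At 15 Gy against 12.5 Gy, 8 of the 10 members had negative changes and 6 did not overlap (S100a8, S100a9, Csf3r, Cxcr2, Mmp8 and Mmp9), against 3.69% of all genes, but only Csf3r was called, where 0.198% of all genes were called lower. That call was lost when any 1 of 3 arrays was left out, replicates 1 and 3 at the lower dose and replicate 1 at the higher, whereas 4 members were called without replicate 2 at 15 Gy. The Csf3r change lay between -1.54 and -1.07 over all left-out arrays. In every comparison, counts of called members with an array left out are given without the share of all genes called in that fit. A higher count there may therefore go with more calls among all genes.

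In CBA/J mice none was called at 12.5 Gy, where 3.28% of all genes were, and 1 member (Lcn2) did not overlap, against 7.56% of all genes. At 15 Gy against 0 Gy, 5 were called higher (S100a8, S100a9, Cxcr2, Mmp8 and Lcn2), where 2.41% of all genes were called higher, and Mmp9 lower, where 3.2% were called lower. The same 5 and Mmp9 did not overlap, against 11.8% of all genes upwards and 12.7% downwards, and the median change was 0.42. When each array was left out in turn 2 to 5 of these 6 calls were made, with 3 without sham-irradiated replicate 3, 2 without replicate 1 at 15 Gy and 3 without replicate 2 or 3 at 15 Gy. Lcn2 and Mmp8 kept their call throughout. The call of Mmp9 was lost without any array other than sham-irradiated replicate 1, that of Cxcr2 without sham-irradiated replicate 3 or any mouse at 15 Gy, that of S100a8 without sham-irradiated replicate 1 or 3 or replicate 1 or 2 at 15 Gy, and that of S100a9 without sham-irradiated replicate 1 or replicate 1 or 3 at 15 Gy. A single call, that of Lcn2, was left with the spread shared over all 27 arrays. At 15 Gy against 12.5 Gy only S100a9 was called, where 0.561% of all genes were called higher. That call was lost without any array other than replicate 1 at 12.5 Gy, and without that array 3 members were called. The change lay between 0.64 and 0.91 over all left-out arrays. Among sham-irradiated mice of different strains, 1 member was called in the 3 comparisons, Lcn2, which was higher in C57L/J than in CBA/J mice by 0.78 ± 0.20 (adjusted p = 0.16), where 3.06% of all genes were called higher. That call was lost without any 1 array other than C57L/J replicate 1, and 3 members were called without C57L/J replicate 1. Without the arrays with muscle transcripts the difference was 0.74. The difference lay between 0.62 and 0.98 over all left-out arrays. No member was called in C57L/J minus C57BL/6J sham-irradiated mice, where 2.6% of all genes were, or in CBA/J minus C57BL/6J, where 4.45% were.

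**Figure D2:**
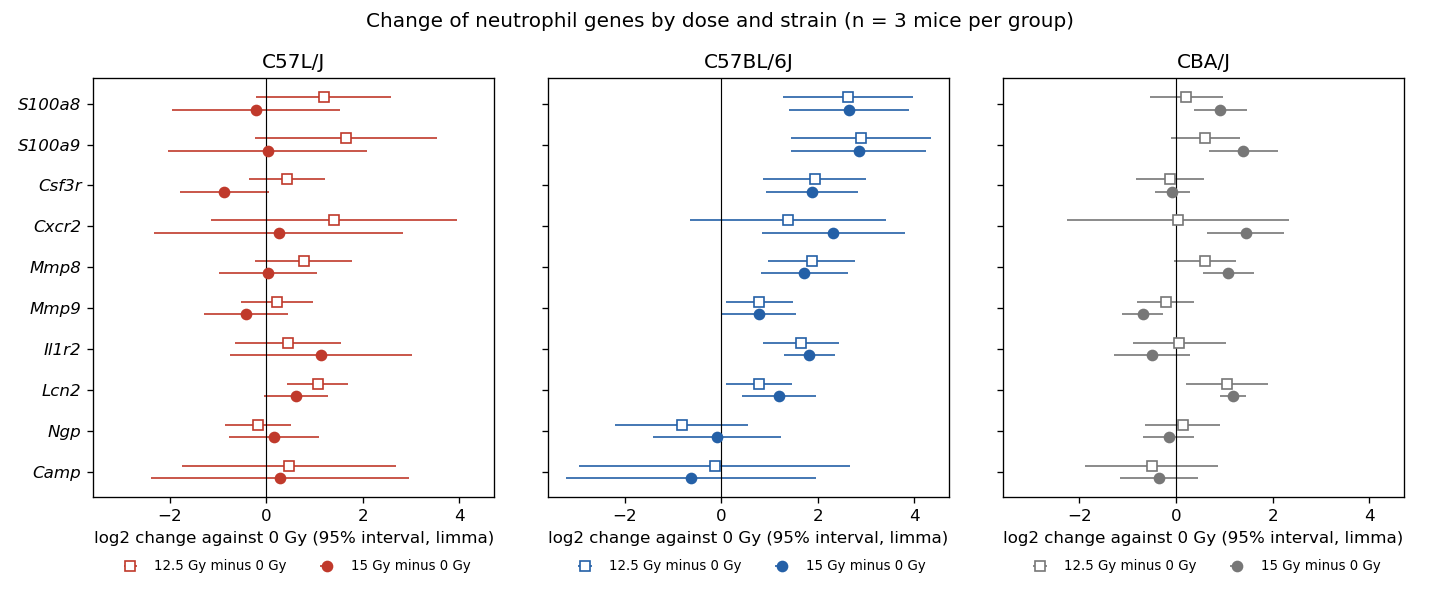
Each panel gives 1 strain, with the log2 change of each neutrophil gene against 0 Gy on the horizontal axis, open squares for 12.5 Gy, filled circles for 15 Gy and bars for the 95% interval of limma (n = 3 mice per group). In C57BL/6J mice the changes of S100a8 and S100a9 lie between 2.62 and 2.90 at both doses, whereas in C57L/J mice those at 15 Gy lie at -0.21 and 0.03.

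Over all 3 strains, with strain as a term, irradiated mice of both doses were compared with sham-irradiated mice (n = 18 and 9). Lcn2 was higher by 0.98 ± 0.15 (adjusted p = 6.5e-05), Mmp8 by 1.01 ± 0.23 (adjusted p = 0.0027), S100a9 by 1.57 ± 0.38 (adjusted p = 0.0052) and S100a8 by 1.23 ± 0.35 (adjusted p = 0.017). These 4 of 10 passed an adjusted p under 0.05, as 14.9% of all genes did. Cxcr2 (1.14, adjusted p = 0.096), Il1r2 (0.77, adjusted p = 0.083) and Csf3r (0.53, adjusted p = 0.25) were positive without passing, and the 95% interval of Mmp9 was -0.31 to 0.47 and that of Ngp -0.58 to 0.28. Without the arrays with muscle transcripts the change was 0.90 for Csf3r and 0.93 for Il1r2. These came from a contrast of 9 group means, not from the fit with strain as a term. No member was called between 15 and 12.5 Gy over the 3 strains, where 0.665% of all genes were at an unadjusted p under 0.01.

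The irradiation effect, the mean of both doses against 0 Gy, was then compared between strains in a fit over all 27 arrays. It was smaller in C57L/J than in C57BL/6J mice in Csf3r (difference -2.13 ± 0.46, adjusted p = 0.41), S100a8 (-2.15 ± 0.66, adjusted p = 0.73) and Mmp8 (-1.39 ± 0.47, adjusted p = 0.84), the 3 members called, where 0.522% of all genes were called lower. It was smaller in CBA/J than in C57BL/6J mice in Csf3r (-2.01 ± 0.46, adjusted p = 0.27), S100a8 (-2.07 ± 0.66, adjusted p = 0.61), Il1r2 (-1.96 ± 0.64, adjusted p = 0.61) and Mmp9 (-1.24 ± 0.38, adjusted p = 0.60), the 4 members called, where 0.693% of all genes were called lower. None passed after adjustment. Without the arrays with muscle transcripts the first contrast gave -2.69 for Csf3r, -2.68 for S100a8 and -2.10 for Mmp8. The second then gave -2.37 for Csf3r, -2.24 for S100a8, -1.97 for Il1r2 and -1.84 for Mmp9. Csf3r was called in both contrasts with any 1 array left out, while the counts of called members were 1 to 4 and 1 to 5. In the first contrast the count was 1 without C57L/J sham-irradiated replicate 2 or 3 or C57BL/6J sham-irradiated replicate 2. In the second it was 1 without CBA/J sham-irradiated replicate 2 and 2 without C57BL/6J sham-irradiated replicate 3. The 95% intervals of Lcn2 included 0 in both, at -0.95 to 0.63 and -0.67 to 0.91. Between C57L/J and CBA/J mice no member was called, where 1.14% of all genes were. These contrasts share the C57BL/6J mice, so the first and second are not independent.

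**Figure D3:**
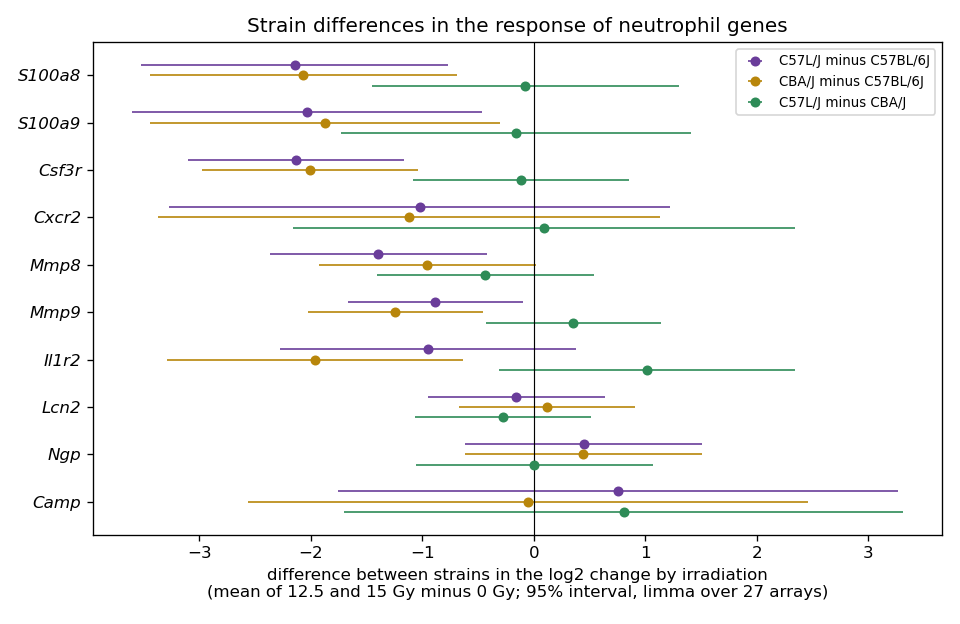
The horizontal axis gives the difference between strains in the log2 change by irradiation (mean of 12.5 and 15 Gy minus 0 Gy) for each neutrophil gene, with 95% intervals from the fit over 27 arrays and a colour for each pair of strains. For Csf3r both differences from C57BL/6J lie near -2 and exclude 0, whereas all intervals of Lcn2 include 0.

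The genes also varied together among mice of 1 group. For each pair of members Pearson's r was taken over the 27 arrays after the mean of the group had been subtracted, with p from 100000 permutations within groups and adjustment over the 45 pairs. In 10 pairs r passed an adjusted p under 0.05, and these were all the pairs among S100a8, S100a9, Csf3r, Mmp8 and Cxcr2, a set named after the values were seen. Their r ran between 0.71 and 0.96, and between 0.59 and 0.96 without the 2 arrays farthest from the median of the first gene. S100a8 and S100a9 had r = 0.96 and Spearman's rho = 0.94 (permutation adjusted p = 0.00045, the smallest these permutations can give), and S100a8 and Csf3r had r = 0.90 and rho = 0.88 (permutation adjusted p = 0.00068). By rho the same 10 pairs and Il1r2 with Ngp (0.55, permutation adjusted p = 0.046) passed. The 17 pairs with Ngp or Camp had r between -0.51 and 0.48, and the 9 pairs with Lcn2 between -0.51 and 0.46. Il1r2, which rose with this set in C57BL/6J mice, had r between -0.10 and 0.04 with its 5 genes within groups, and 0.54 with Mmp9 (permutation adjusted p = 0.092). Without the 2 arrays farthest from the median of the first gene, r with the 5 genes ran from -0.28 to 0.21. The highest Il1r2 value, 9.25, came from C57L/J replicate 3 at 15 Gy, which carried muscle transcripts. No r was taken without all arrays of that kind. All values of a pair come from the same array and so share its RNA and its muscle transcripts.

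**Figure D4:**
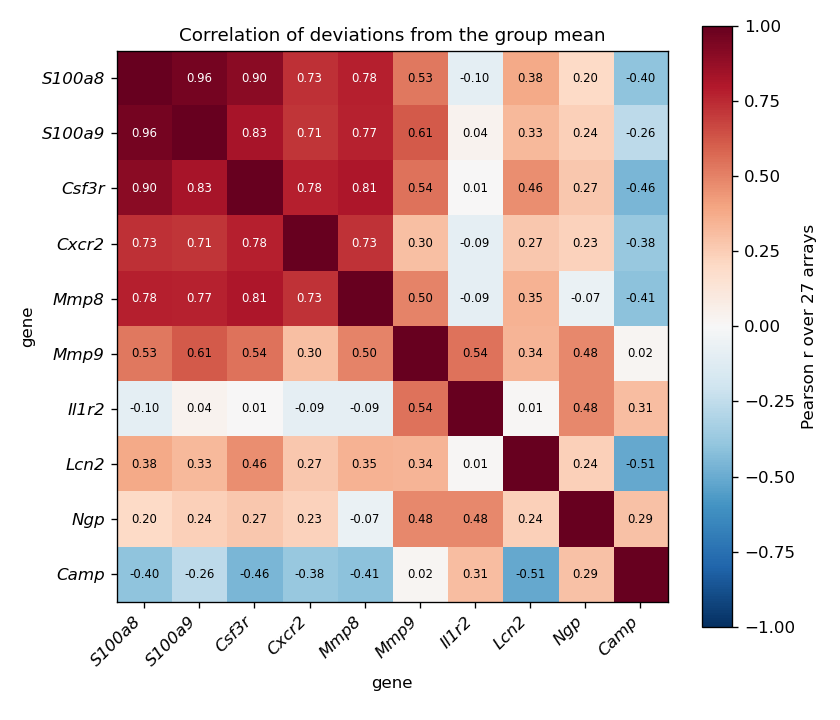
The colour and the printed value of each square give Pearson's r of the pair of genes named on the axes, over 27 arrays after subtraction of the group mean. S100a8, S100a9, Csf3r, Cxcr2 and Mmp8 form a block of r between 0.71 and 0.96, while Il1r2 lies near 0 with each of them.

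The genes whose pattern was most like the mean standardised level of the 10 members over the 27 arrays were Stfa2l1 (r = 0.89), Slfn4 (0.88), Fam167a (0.86), Clec4d (0.86), Ccr1 (0.83), Hsp90aa1 (0.79), Wfdc17 (0.77), Cfap300 (0.76), Jpx (0.75) and Abhd3 (0.75). After subtraction of group means they were Clec4d (0.83), Il1b (0.76), Hace1 (0.73), Prkcd (0.73), Trem1 (0.73), Malt1 (0.72), Myo1f (0.70), P2ry14 (0.69), Stk17b (0.69) and Snrnp35 (0.68). These are descriptions over 27 arrays, and only Clec4d, a C-type lectin receptor of myeloid cells, stood in both lists.

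Other genes known from neutrophils were read in the fit over the 3 strains, in which 14.9% of all genes passed an adjusted p under 0.05. Of 14 further granule protein genes, 1 rose and 1 fell, a share no larger than that of all genes, and the median change was 0.10. The riser was Cd177, a surface protein of neutrophil granules (1.05, adjusted p = 0.0012), which in C57L/J mice at 12.5 Gy was also higher by 1.16 (adjusted p = 0.047), and the one that fell was Cst7, a cystatin (-0.60, adjusted p = 0.0024). Of 14 further receptors measured, 2 rose and 3 fell, with a median of -0.01. Clec4d (0.88, adjusted p = 0.012) and Clec4e (0.76, adjusted p = 0.025) rose, whereas Cxcr4, which retains neutrophils in the marrow, fell (-0.94, adjusted p = 2.6e-05), as did Ltb4r1, a leukotriene receptor (-1.22, adjusted p = 0.025). Of 19 cytosolic and secreted proteins measured, 4 rose and 3 fell, with a median of 0.05. Stfa2l1, a stefin (1.26, adjusted p = 0.0059), and Timp1 (0.59, adjusted p = 0.021) rose. Ncf4 (-0.82, adjusted p = 4.4e-07) and Ncf1 (-0.57, adjusted p = 0.0016), subunits of the NADPH oxidase, fell. Which cells of the lobe these changes came from was not tested.

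Clec4d and Stfa2l1, which also stood among the genes most like the members in pattern and so are not independent of them, were called in several comparisons. In C57BL/6J mice Clec4d was higher by 1.93 at 12.5 Gy (adjusted p = 0.17) and 1.92 at 15 Gy (adjusted p = 0.19), and Stfa2l1 by 2.70 (adjusted p = 0.19) and 2.82 (adjusted p = 0.22), all 4 called. Stfa2l1 was also called in C57L/J mice at 12.5 Gy (1.16, adjusted p = 0.20), and Clec4d in C57L/J mice at 15 Gy against 12.5 Gy (-1.06, adjusted p = 0.99). The irradiation effect in C57L/J minus that in C57BL/6J was -1.55 for Clec4d and -1.98 for Stfa2l1 (adjusted p = 0.60 for each), and in CBA/J minus C57BL/6J it was -1.57 (adjusted p = 0.43) and -2.54 (adjusted p = 0.22). All 4 were called, and none passed after adjustment. Against 0 Gy in C57BL/6J mice, 1 of the 14 receptors was called higher and 1 lower at 12.5 Gy. At 15 Gy it was 2 and 2. For the 19 cytosolic and secreted proteins it was 1 and 1, then 3 and 0. Those called lower were Cxcr4 (-0.99 at 12.5 Gy and -1.11 at 15 Gy), Ltb4r1 (-1.14 at 15 Gy) and Ncf4 (-0.88 at 12.5 Gy). The share of all genes called higher was 0.978% at 12.5 Gy and 1.59% at 15 Gy.

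Chemokines and growth factors that attract or sustain neutrophils were listed too. Of 22 attractants and growth factors, 2 rose and 2 fell over the 3 strains, with a median change of 0.02, a share close to that of all genes. Cxcl2, a ligand of Cxcr2, rose by 0.80 (adjusted p = 0.0010) and Cxcl12, the ligand of Cxcr4, by 0.36 (adjusted p = 0.0074), while Ppbp, a platelet chemokine, fell (-0.52, adjusted p = 0.035), as did Ccl4 (-0.41, adjusted p = 0.012). Mean Cxcl2 was 5.57 at 0 Gy, 6.69 at 12.5 Gy and 6.73 at 15 Gy in C57L/J mice, and 5.56, 5.93 and 6.17 at the same doses in C57BL/6J mice. Within a strain Cxcl2 was called only in C57BL/6J mice at 15 Gy against 0 Gy (0.61, adjusted p = 0.21). No difference between strains in its irradiation effect was called. Csf3, the ligand of Csf3r, lay between 2.08 and 5.65 over the 27 arrays and was called in no comparison. For Cxcl5 the irradiation effect in CBA/J minus that in C57BL/6J was 2.02, which was called but did not pass after adjustment (adjusted p = 0.57). No other difference between strains in this effect was called for Cxcl5. Its values were low, between 3.90 and 7.04, and the difference is not given without the arrays with muscle transcripts.

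Markers of other cells moved in the same mice. Of 7 monocyte genes measured, 6 fell over the 3 strains (adjusted p under 0.05), among them Ccr2, the receptor by which monocytes leave the marrow (-1.53, adjusted p = 4.3e-09), and the median was -1.05. Their summed intensity in C57BL/6J mice was 9914 to 11834 at 0 Gy, 8178 to 8600 at 12.5 Gy and 7708 to 8943 at 15 Gy, and in C57L/J mice 8966 to 10474, 6949 to 7758 and 6208 to 8604 at the same doses. Of 4 erythroid genes, Alas2 and Slc4a1 fell (-1.80 and -1.50), and the summed intensity in C57BL/6J mice was 1674 to 3702 at 0 Gy, 497.8 to 585.0 at 12.5 Gy and 422.8 to 671.3 at 15 Gy. Of 7 epithelial genes none was called, and of 7 alveolar macrophage genes Itgax fell (-0.55, adjusted p = 0.0051). Of 10 skeletal muscle genes none was called over the 3 strains, although all 10 were higher in irradiated mice and their summed intensity ran from 1020 to 1692 at 0 Gy, 1078 to 74832 at 12.5 Gy and 1267 to 78664 at 15 Gy in C57BL/6J mice. The part of these cells in the changes of the neutrophil genes was not tested.

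Of 6 genes induced by glucocorticoids 4 rose over the 3 strains, Zbtb16 (1.13, adjusted p = 0.0033), Mt2 (0.83, adjusted p = 0.0092), Fkbp5 (0.60, adjusted p = 0.041) and Sgk1 (0.53, adjusted p = 5.8e-04). Their summed intensity in C57BL/6J mice was 13225 to 14708 at 0 Gy, 20929 to 23895 at 12.5 Gy and 18619 to 23886 at 15 Gy, with no overlap, and in CBA/J mice 11751 to 14628, 23448 to 26647 and 21031 to 23270 at the same doses. In C57L/J mice the sums overlapped, at 14502 to 26693, 18703 to 20128 and 19274 to 21574. The irradiation effect on Zbtb16 was smaller in C57L/J than in C57BL/6J mice (-1.66, called, adjusted p = 0.73). The part of this response in the neutrophil genes was not tested.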

How the data were processed

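Lung RNA of 27 mice was measured by the authors on Affymetrix mouse whole-genome expression arrays, hybridised in a single batch according to their methods. With Affymetrix Expression Console 1.1, per the labels, the authors made a linear intensity for each of 45101 probe sets. The 2% trimmed mean was 500 on every array, the methods speak of quartile normalization, with the way probes were summarised not given in the sources used here. Intensities were floored at 1 and turned to log2, with no further normalization. Probe sets with 1 gene symbol (34958 by the platform annotation) gave 18194 genes, each read from its probe set of highest mean. No pair of arrays was identical (highest correlation 0.959), and precision is limited by how many arrays there are.

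Groups were compared by limma 3.58.1 in R 4.3.3 (lmFit and eBayes, two-sided), each pair of groups in a fit of its own 6 arrays, with Benjamini-Hochberg adjustment over all genes. A call is an unadjusted p under 0.01, the criterion of the methods, or an adjusted p under 0.05 where said. With 3 mice on each side the lowest p of an exact permutation test is 0.1, and none was used for pairs of groups. Fits over 3 strains had strain as a term, and strain differences in the effect were contrasts of 9 group means. Correlations used 100000 two-sided permutations within groups (random seed 1).

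The members and lists were chosen with earlier results of these data known. Named genes are the 10 members, up to 4 called genes of a list in a comparison, and the 10 genes of most similar pattern, other choices being marked. List genes that could not be matched to the annotation were not analysed here. Alternatives were a floor of 32, quantile normalization, median-centring, other probe sets, only genes with a mean log2 of at least 6 (9 of the 10 members), an intensity trend with a robust prior, the random variance test of the methods, a fit over all arrays, a replicate block, leaving out each array, leaving out arrays with a skeletal muscle mean more than 2 log2 units above the median array, that mean as a covariate, and single doses. The fits were tested on simulated data. Figures were drawn with matplotlib 3.10.9 in Python 3.11.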

Additional observations from a re-analysis of the deposited data

Results flagged for a closer look

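Differences between strains in the effect of irradiation passed an unadjusted limma p under 0.01 for 7 pairs of gene and strain contrast, and none passed after adjustment over all genes. In C57L/J minus C57BL/6J mice the differences were -2.13 for Csf3r, -1.39 for Mmp8 and -2.15 for S100a8 on the log2 scale. In CBA/J minus C57BL/6J mice they were -2.01 for Csf3r, -1.96 for Il1r2, -1.24 for Mmp9 and -2.07 for S100a8. Each was a test of the difference itself over all 27 arrays. Both contrasts share the C57BL/6J mice, in which 4 of 6 irradiated arrays and none of the sham-irradiated arrays carried muscle transcripts. Without the arrays with muscle transcripts the differences from C57L/J were -2.69 for Csf3r, -2.10 for Mmp8 and -2.68 for S100a8, and those from CBA/J were -2.37 for Csf3r, -1.97 for Il1r2, -1.84 for Mmp9 and -2.24 for S100a8.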

How the results depend on the processing

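No change of a single gene named here changed direction at a call under any alternative. Some medians of the members did change sign. In CBA/J mice at 15 against 12.5 Gy the median went from 0.14 to -0.21 without the arrays with muscle transcripts. With 1 array left out it fell from 0.10 to -0.53 in C57L/J mice at 15 against 0 Gy. For C57L/J minus C57BL/6J sham-irradiated mice it then fell from 0.29 to -0.13. Of the changes of single genes at an unadjusted p under 0.01 (33 in all), 695 repeats under other settings kept their call and 113 lost it. Replicate numbers did not pair the mice: same-numbered arrays correlated above 0.1 in all 3 pairs in none of the 12 comparisons. With the number as a replicate block, 6 members were called in C57BL/6J mice at 12.5 Gy and 5 at 15 Gy, 0 in C57L/J mice at 15 against 12.5 Gy and 0 between sham-irradiated C57L/J and CBA/J mice. Median changes without the arrays with muscle transcripts were 2.48 and 2.28 in C57BL/6J mice at 12.5 and 15 Gy, 0.69 in CBA/J mice at 12.5 Gy and -0.21 at 15 against 12.5 Gy, and -1.77 and -1.75 for the effect in C57L/J and in CBA/J minus that in C57BL/6J mice. In C57L/J mice at 15 against 12.5 Gy, 0 members were called without those arrays. With the fit over all 27 arrays 1 member was called in CBA/J mice at 15 against 0 Gy, 0 at 15 against 12.5 Gy, and 0 between sham-irradiated C57L/J and CBA/J mice. A floor of 32 left 0 in C57L/J mice at 12.5 Gy and 0 between those sham groups. Quantile normalization and the most variable probe set each left 0 there and 0 in CBA/J mice at 15 against 12.5 Gy. In C57L/J mice at 15 against 12.5 Gy the filter on low values gave 4 and the intensity trend 3. With that filter the median in CBA/J mice at 15 Gy was 0.92, Camp being left out. Median-centring left 2 for the effect in CBA/J minus C57BL/6J mice. Correlations of values that were not centred passed in 20 pairs. The random variance test made 5 calls in C57BL/6J mice at 12.5 Gy and 7 at 15 Gy. The share of all genes called under each alternative is not given, so these counts of members are not set against all genes.

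With each array left out in turn, the median change against 0 Gy lay between 0.43 and 0.91 at 12.5 Gy and between -0.53 and 0.30 at 15 Gy in C57L/J mice, between 1.05 and 1.82 and between 1.45 and 2.01 in C57BL/6J mice, and between 0.04 and 0.34 and between 0.33 and 0.52 in CBA/J mice. At 15 against 12.5 Gy it lay between -0.82 and -0.63 in C57L/J, between -0.29 and 0.44 in C57BL/6J and between 0.11 and 0.33 in CBA/J mice. For C57L/J minus C57BL/6J sham-irradiated mice it lay between -0.13 and 0.56, for CBA/J minus C57BL/6J between -0.54 and 0.15, and for C57L/J minus CBA/J between -0.0436 and 0.83. For the irradiation effect it lay between -1.47 and -0.61 in C57L/J minus C57BL/6J, between -1.44 and -0.95 in CBA/J minus C57BL/6J, and between -0.45 and 0.28 in C57L/J minus CBA/J mice. The members called were 0 to 1 in C57L/J mice at 12.5 against 0 Gy and 0 to 4 at 15 against 12.5 Gy, 3 to 6 and 4 to 6 in C57BL/6J mice at 12.5 and 15 Gy, 2 to 5 in CBA/J mice at 15 against 0 Gy and 0 to 3 at 15 against 12.5 Gy, and 0 to 3 between sham-irradiated C57L/J and CBA/J mice. For the effect in C57L/J and in CBA/J minus that in C57BL/6J mice they were 1 to 4 and 1 to 5. With 3 mice a group, precision is limited by the number of arrays.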

Other observations

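Of 6 transcription factor genes of granulocytes measured, Spi1, which encodes PU.1 (-0.42, limma adjusted p = 0.045), and Runx1 (-0.35, adjusted p = 0.025) fell over the 3 strains, and Gfi1 was lower in CBA/J mice at 15 Gy than at 0 Gy (-1.38, adjusted p = 0.038). Of 5 eosinophil and basophil genes none was called over the 3 strains, and Ccr3, the eotaxin receptor, was lower in CBA/J mice at 15 Gy than at 0 Gy (-1.21, adjusted p = 0.099). Of 3 thymocyte genes and 2 thyroid genes none was called in that fit. Il6, the gene of interleukin 6, had opposite signs in the strains, with a change of 2.57 at 15 Gy in C57L/J mice (adjusted p = 0.50) and of -1.63 at 15 Gy in C57BL/6J mice (adjusted p = 0.15), and the irradiation effect in C57L/J minus that in C57BL/6J mice was 3.40 (adjusted p = 0.58). The Il6 values lay between 1.09 and 5.61 on the log2 scale. The antimicrobial protein gene Ltf, which is made by neutrophils and by airway glands, ranged from 6.22 to 14.24 between arrays and was called in no comparison.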
